A study of Mus musculus with 5 samples.

Results

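The genes described here are 34 markers of endothelium and endocardium, a fixed list chosen by gene symbol from the 18307 genes of the RefSeq gene table. All 34 were found there and all 34 passed the low-count filter. They were measured by RNA sequencing in ventricles of E10.5 embryos of the outbred mouse stock CD-1. The dams had received daily injections of caffeine at 20 mg/kg (3 libraries) or of saline as vehicle (2 libraries), the first at E6.5 and the last at E9.5. Each library is a pool of ventricles from embryos that shared dams, so a pool, not an embryo, is the unit of replication. Every library comes from whole ventricle, in which endothelium is mixed with cardiomyocytes, blood, epicardium and cushion mesenchyme. The cardiomyocyte markers were abundant in all 5 libraries (mean log2 CPM 10.3 to 10.6), and every endothelial member was detected in all 5.

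Endocardium is the endothelium that lines the heart lumen. It signals to the myocardium beside it during trabeculation and gives rise to the cushion mesenchyme from which valves form, while vessel endothelium builds the coronary and systemic circulation. Both keep their identity through ETS, SoxF and Tal1 transcription factors and are recognised by junction proteins such as VE-cadherin, by the Tie receptors and by surface sialomucins. Nfatc1 sets the endocardium apart from most other endothelium at this stage.

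Library totals lay between 21713381 and 25048134 estimated counts. Values are given as CPM, counts scaled by library size, and 1 count was worth 0.0412 to 0.0455 CPM. The 34 genes took 0.354%, 0.292% and 0.312% of the counts in caffeine replicates 1, 2 and 3, against 0.314% and 0.316% in vehicle replicates 1 and 2. Their summed level was 3461, 2889 and 3073 CPM in the caffeine libraries and 3243 and 3227 CPM in the vehicle libraries. Both vehicle sums lay inside the range of the caffeine sums. In bulk RNA, fewer endothelial cells and less RNA per cell cannot be told apart.

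Levels were compared between genes as RPKM, the CPM divided by exon length in kilobases, using lengths from the GENCODE vM21 annotation. Plvap, the diaphragm protein of fenestrae and caveolae, was highest with a mean of 126 RPKM over the 5 libraries. Ramp2, the partner that turns the calcitonin receptor-like receptor into an adrenomedullin receptor, followed with 88.8 RPKM. The TGF-beta family co-receptor Eng had 82.9 RPKM, the VE-cadherin gene Cdh5 76.2 RPKM and the orphan Tie receptor Tie1 47.1 RPKM. Altogether 17 members had more than 20 RPKM.

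At the other end, 5 members had under 3 RPKM. The SoxF factor Sox17 had 0.786 RPKM, the roundabout receptor Robo4 0.979 RPKM and the tight junction gene Cldn5 0.989 RPKM, and their ranges over libraries overlapped one another. Acvrl1, the type I receptor that works with Eng, had 1.46 RPKM (1.33 to 1.56 over libraries), far under Eng itself (74.2 to 92.3). Lyve1, a hyaluronan receptor of lymphatic vessels and of some macrophages, had 2.36 RPKM. In the order of levels many neighbours overlapped between libraries, as Eng and Cdh5 did, but Plvap lay above all other members in every library.

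**Figure D1:**
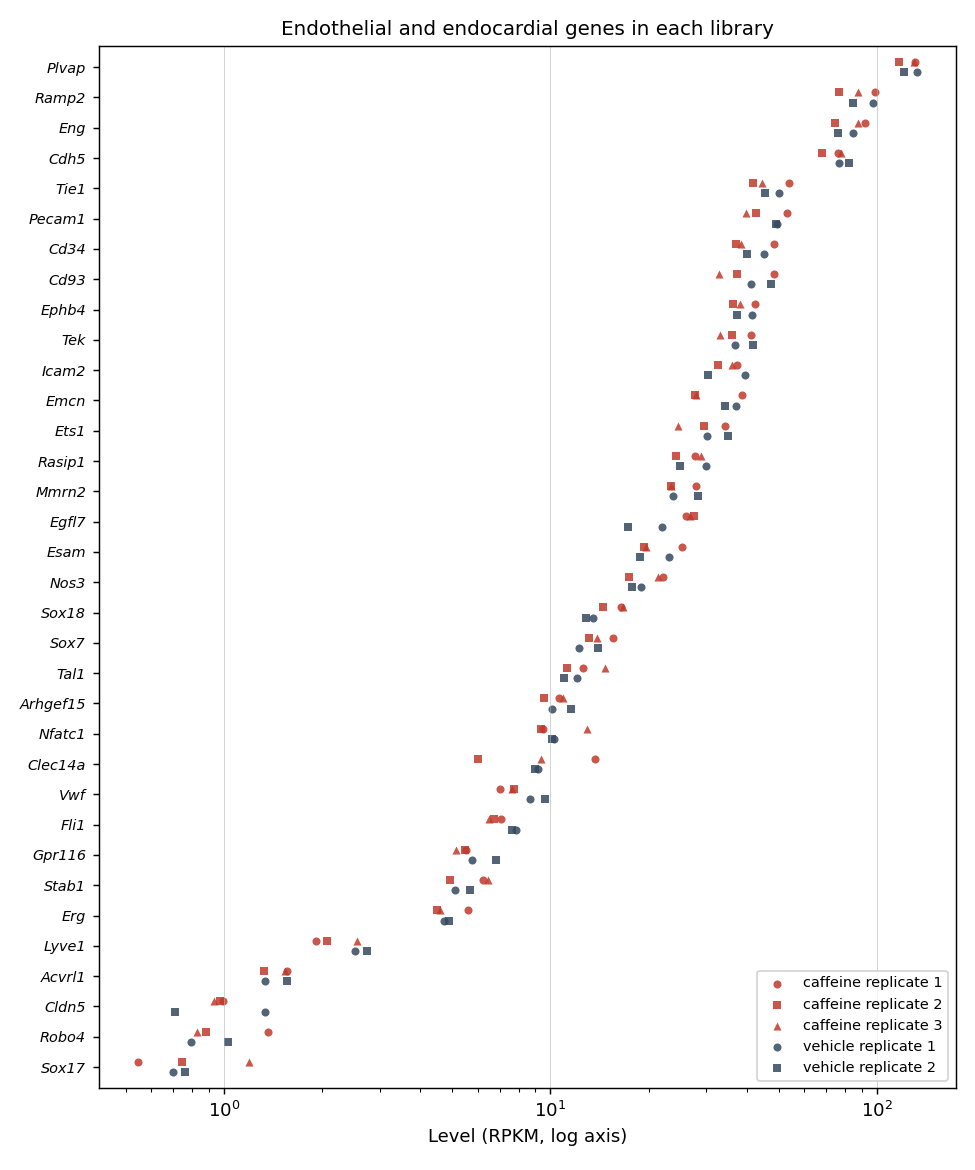
Level of each of the 34 genes in RPKM (log axis), ordered by mean level, with 1 point for each of the 3 caffeine and 2 vehicle libraries. Levels run from 0.786 RPKM for Sox17 to 126 RPKM for Plvap, and for most genes the points of the groups interleave.

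Whether caffeine given to the dam altered the endothelial part of the ventricle was asked by comparing caffeine with vehicle libraries. No member passed. With edgeR's quasi-likelihood test, 0 of 34 had an adjusted p under 0.05, against 1 of all 13829 genes tested (0.00723%), the antisense gene Peg3as, named here after its value was seen. DESeq2 and limma-voom also called 0 of 34, against 0.13% and 0.00723% of all genes. The smallest adjusted p was 0.832, for Egfl7. At an unadjusted p under 0.05 there were 2 members (5.88%), against 5.2% of all genes tested. Egfl7 was the 1 with a higher value in caffeine (background 3.13%) and Vwf the 1 with a lower value (background 2.07%). The same 2 had an unadjusted p under 0.05 with DESeq2 (background 4.53%) and with limma-voom (5.23%). The p-values measure the spread between 5 pools.

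The median log2 fold change (caffeine minus vehicle, here and below) of the 34 members was -0.02, beside 0.01 for all genes tested. There were 15 positive and 19 negative values, against 53% positive over all genes. Members ran from -0.29 (Vwf) to 0.45 (Egfl7), and their standard errors (SE) from 0.12 to 0.36. The median changed sign when a library was left out, to 0.04 without vehicle replicate 1 or without caffeine replicate 2. It was -0.10 without caffeine replicate 1.

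The intervals of the differences show what size of change these libraries leave room for. For 27 of the 34 genes the 95% interval lay wholly within a 1.5-fold change in either direction, and for all 34 within a 2-fold change. Among all genes tested, 61.1% had an interval within 1.5-fold. The members' median biological coefficient of variation was 0.122, beside 0.137 for all genes tested, and 27 of 34 lay under that value. The members also had higher levels, with a mean log2 CPM of 5.65 in caffeine and 5.66 in vehicle. For all genes tested it was 4.32 and 4.29, and these comparisons were not matched for level.

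**Figure D2:**
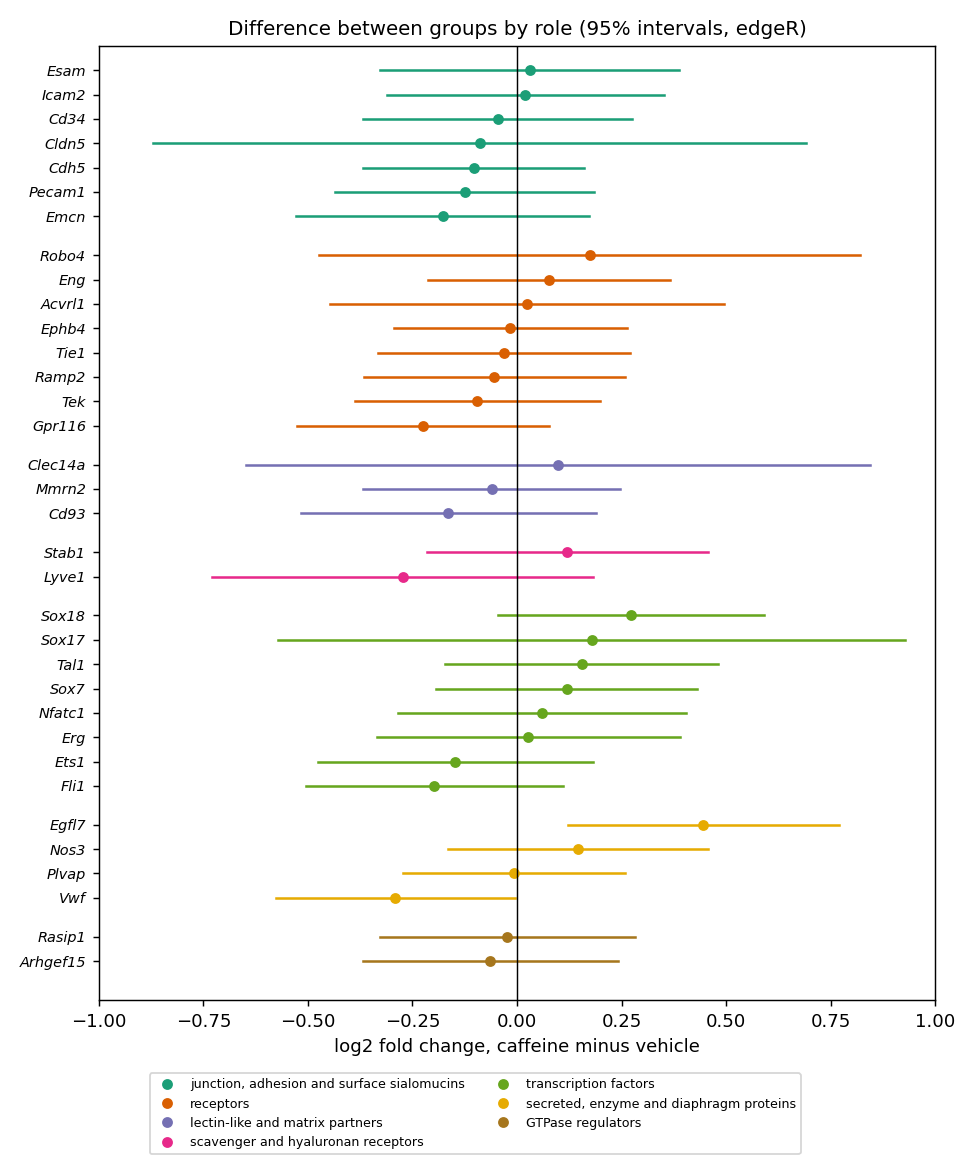
Log2 fold change (caffeine minus vehicle) of the 34 genes with 95% intervals from edgeR, grouped by role and coloured by group. Intervals of 32 genes span 0, that of Egfl7 lies above 0 and that of Vwf below it, and no gene passed after adjustment.

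Junction and adhesion genes and the surface sialomucins had 7 of 7 members tested and none past the threshold. Their median was -0.09, and it ran from -0.16 without vehicle replicate 2 to 0.04 without vehicle replicate 1. Cdh5, which holds endothelial cells together at adherens junctions, had 304, 272 and 310 CPM in the caffeine libraries, against 307 and 328 CPM in the vehicle libraries. The groups overlapped, and its edgeR estimate was -0.10 (SE 0.12, adjusted p = 0.999). Pecam1, the adhesion molecule also known as CD31, had 175, 140 and 131 CPM in caffeine and 163 and 162 CPM in vehicle, so that the vehicle libraries lay inside the caffeine range. Its log2 fold change was -0.13 (SE 0.14).

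Cldn5 was low, at 1.41, 1.38 and 1.32 CPM in caffeine and 1.89 and 1.00 CPM in vehicle, which is 22 to 46 counts per library. The vehicle libraries enclosed the caffeine libraries, and its interval ran from -0.87 to 0.69. The remaining members of this group were Esam (0.03, SE 0.16) and Icam2 (0.02, SE 0.15), both adhesion molecules of endothelial contacts, and the sialomucins Cd34 (-0.05, SE 0.15) and Emcn (-0.18, SE 0.16). Emcn, found on capillary and venous endothelium, averaged 81.5 ± 16.3 CPM in caffeine (SD, n = 3) and 92.2 ± 4.93 CPM in vehicle (SD, n = 2). Without caffeine replicate 1, the highest library, its log2 fold change was -0.36 with an unadjusted p of 0.0280 from edgeR.

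Among the 8 receptors none passed and the median was -0.02 (-0.12 without caffeine replicate 1, 0.04 without caffeine replicate 2). Tek, the angiopoietin receptor Tie2, had 191, 168 and 154 CPM in caffeine and 171 and 195 CPM in vehicle (log2 fold change -0.09, SE 0.14). Its relative Tie1 had 221, 170 and 183 CPM in caffeine and 205 and 186 CPM in vehicle (-0.03, SE 0.14). In both genes the groups overlapped.

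Eng had 330, 265 and 312 CPM in caffeine and 301 and 272 CPM in vehicle, a log2 fold change of 0.08 (SE 0.13). Acvrl1 averaged 5.49 ± 0.478 CPM in caffeine (SD, n = 3) and 5.41 ± 0.598 CPM in vehicle (SD, n = 2). Ramp2 had 116, 90.0 and 103 CPM in caffeine and 115 and 99.3 CPM in vehicle (-0.05, SE 0.14). Groups overlapped in all of these, and Ephb4, the ephrin B2 receptor of veins, also had overlapping groups (-0.02, SE 0.13).

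Gpr116, an adhesion G protein-coupled receptor now named Adgrf5, had 47.0, 46.9 and 43.8 CPM in caffeine and 49.2 and 58.2 CPM in vehicle. All caffeine libraries lay below both vehicle libraries, by a margin set by vehicle replicate 1. The edgeR estimate was -0.22 (SE 0.14, adjusted p = 0.999). Robo4, at 4.4, 2.84 and 2.68 CPM in caffeine and 2.55 and 3.32 CPM in vehicle, was too low for a narrow interval (-0.47 to 0.82).

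Of the 8 transcription factors none passed, and 6 had positive values, with a median of 0.09. Without caffeine replicate 3 there were 4 positive values and a median of 0.01, and the median was 0.05 without vehicle replicate 1, 0.04 without vehicle replicate 2 and 0.16 without caffeine replicate 2. Of the SoxF factors, which act redundantly in vessel formation, Sox18 had 26.7, 23.6 and 27.1 CPM in caffeine and 21.9 and 20.8 CPM in vehicle. The groups did not overlap, with an edgeR estimate of 0.27 (SE 0.15, adjusted p = 0.999). Sox7 averaged 46.9 ± 4.13 CPM in caffeine (SD, n = 3) and 43.2 ± 4.17 CPM in vehicle (SD, n = 2). Sox17 stood at 1.70, 2.32 and 3.72 CPM in caffeine and 2.18 and 2.37 CPM in vehicle, with both vehicle libraries inside the caffeine range. All 3 SoxF genes had positive values (0.12 for Sox7 and 0.18 for Sox17), none past the threshold. Sox17 turned negative without caffeine replicate 3 (-0.18).

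Of the ETS factors, which bind a GGAA core, none passed. Fli1 had 23.5, 22.3 and 21.5 CPM in caffeine and 26.1 and 25.3 CPM in vehicle, again without overlap, and an edgeR estimate of -0.20 (SE 0.14, adjusted p = 0.999). Its close relative Erg, a factor that maintains endothelial identity, had 18.1, 14.7 and 14.9 CPM in caffeine and 15.3 and 15.9 CPM in vehicle (0.03, SE 0.17). The groups overlapped for Erg, and likewise for Ets1 (-0.15, SE 0.15).

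Nfatc1, the calcineurin-regulated factor of the endocardium that mice need for valve formation, had 70.7, 69.5 and 96.1 CPM in caffeine and 76.0 and 75 CPM in vehicle. The log2 fold change of its total was 0.06 (SE 0.16) and -0.11 without caffeine replicate 3, which stood above the other 4 libraries. Tal1, which both blood and endocardium require, averaged 54.1 ± 7.21 CPM in caffeine (SD, n = 3) and 48.6 ± 3.22 CPM in vehicle (SD, n = 2), a value of 0.15 (SE 0.15). Red cell precursors also express Tal1. The 16 erythroid markers tested had a mean log2 CPM of 7.10, 6.48 and 7.04 in caffeine and 7.10 and 6.52 in vehicle. All of them were detected in every library, and they summed to 12162, 8856 and 13938 CPM in caffeine and 14457 and 8389 CPM in vehicle. Over the 5 libraries the lowest 2 were the same for Tal1 and for the erythroid list, and the part of red cells in the Tal1 values was not tested.

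Secreted and membrane products of endothelium held both members with an unadjusted p under 0.05. Egfl7, a secreted matrix protein of endothelial cells whose gene also hosts the microRNA gene Mir126a, had 42.3, 44.8 and 43.7 CPM in caffeine and 35.8 and 28.1 CPM in vehicle. All caffeine libraries lay above both vehicle libraries. The edgeR estimate was 0.45 (SE 0.15, unadjusted p = 0.0110, adjusted p = 0.832). It was 0.26 without vehicle replicate 2 and 0.63 without vehicle replicate 1, so its size rested on the lower vehicle library.

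Vwf, the clotting glycoprotein stored in endothelial granules, had 61.8, 68.6 and 67.2 CPM in caffeine and 76.3 and 84.9 CPM in vehicle. Every caffeine library was below both vehicle libraries, and the edgeR estimate was -0.29 (SE 0.13, unadjusted p = 0.0462, adjusted p = 0.949). Leaving out 1 library moved it between -0.37 and -0.24, and its unadjusted p from edgeR stayed under 0.05 only without vehicle replicate 1 (0.0350). Without any 1 of the others it was 0.0658 to 0.150. Vwf is also made by megakaryocytes. Pf4, a platelet lineage gene of the blood marker list, had 18.8, 11.3 and 10.5 CPM in caffeine and 29.5 and 15.9 CPM in vehicle. Its groups overlapped (edgeR estimate -0.75, SE 0.34, adjusted p = 0.981). The platelet genes Itga2b, Gp1bb and Gp9 were also listed and their values are not given here, so Pf4 does not stand for the lineage. The 15 tested genes of that list had a median of 0.64, with 10 positive, and -0.75 was the lowest value among them. The part of the megakaryocyte lineage in the Vwf values was not tested.

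Plvap, the most abundant member, had the value nearest to 0 in this group, with 260, 232 and 259 CPM in caffeine and 263 and 240 CPM in vehicle (-0.01, SE 0.12). The endothelial nitric oxide synthase Nos3 averaged 83.8 ± 10.5 CPM in caffeine (SD, n = 3) and 75.8 ± 3.61 CPM in vehicle (SD, n = 2), a value of 0.14 (SE 0.14). The span of Nos3 overlaps that of Atg9b on the other strand, as those of Eng, Cd34 and Stab1 overlap Fpgs, Gm16897 and Nt5dc2. Reads from any exons that overlap in such pairs cannot be told apart unless counting used strand. The sources used here do not say whether it did, and the overlap of exons was not checked.

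The lectin-like receptors Clec14a and Cd93 bind the endothelial matrix protein Mmrn2. Clec14a was the member with the widest spread for its level, at 62.5, 27.5 and 42.8 CPM in caffeine against 41.9 and 40.9 CPM in vehicle. Its highest library exceeded its lowest 2.27-fold, both being caffeine pools. Cd93 (-0.16, SE 0.16) and Mmrn2 (-0.06, SE 0.14) had overlapping groups. Cd93 was -0.34 without caffeine replicate 1 (unadjusted p = 0.0311 from edgeR), -0.27 without vehicle replicate 1, -0.08 without vehicle replicate 2 and -0.05 without caffeine replicate 3. Of the scavenger and hyaluronan receptors, Lyve1 had -0.27 (SE 0.21) and Stab1 0.12 (SE 0.15). Both are also carried by some macrophages. The macrophage and blood cell list had a mean log2 CPM of 1.5, 0.44 and 0.99 in caffeine and 0.89 and 0.58 in vehicle. This list also holds platelet genes such as Pf4, so its levels are not those of macrophages alone. Of its 19 genes with a row, 15 were tested and enter that mean. All 19 summed to 72.9, 42.5 and 53.4 CPM in caffeine and 82.6 and 51.5 CPM in vehicle. The part of macrophages in the Lyve1 and Stab1 values was not tested. The regulators of small GTPases, Rasip1 (-0.02, SE 0.14), needed for vessel lumens in mice, and the exchange factor Arhgef15 (-0.06, SE 0.14), had overlapping groups.

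Of the 34 members, 5 (14.7%) had groups with no overlap, against 20.4% of all genes tested. Sox18 and Egfl7 lay higher in caffeine (5.88%, against 11.2% of all genes tested), and Vwf, Gpr116 and Fli1 lower (8.82%, against 9.27%). These shares did not exceed the background.

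Pools of the same group also differed. Caffeine replicate 1 was the highest library for 14 of 34 members (41.2%), against 23.4% of all genes tested, and caffeine replicate 2 the lowest for 16 of 34 (47.1%), against 11.7%. The log2 level in caffeine replicate 1 minus that in caffeine replicate 2 had a median of 0.22 over the members, positive in 30 of 34. Over all genes it was -0.00303, positive in 49.6%.

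The same difference was 0.14 for 60 further endothelial genes (positive in 48), 0.49 for 16 erythroid markers (14), 0.76 for 15 macrophage and blood cell markers (14) and 0.02 for 20 cardiomyocyte markers (14). It was 0.23 for 15 cushion mesenchyme markers (positive in 9) and 0.11 for 14 epicardial markers (9). Positive medians were thus not particular to endothelial and blood genes. Between vehicle replicates 1 and 2 the median difference of the members was 0.03, positive in 19 of 34. Cells that the dissection included were not counted, and their part in these differences was not tested.

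**Figure D3:**
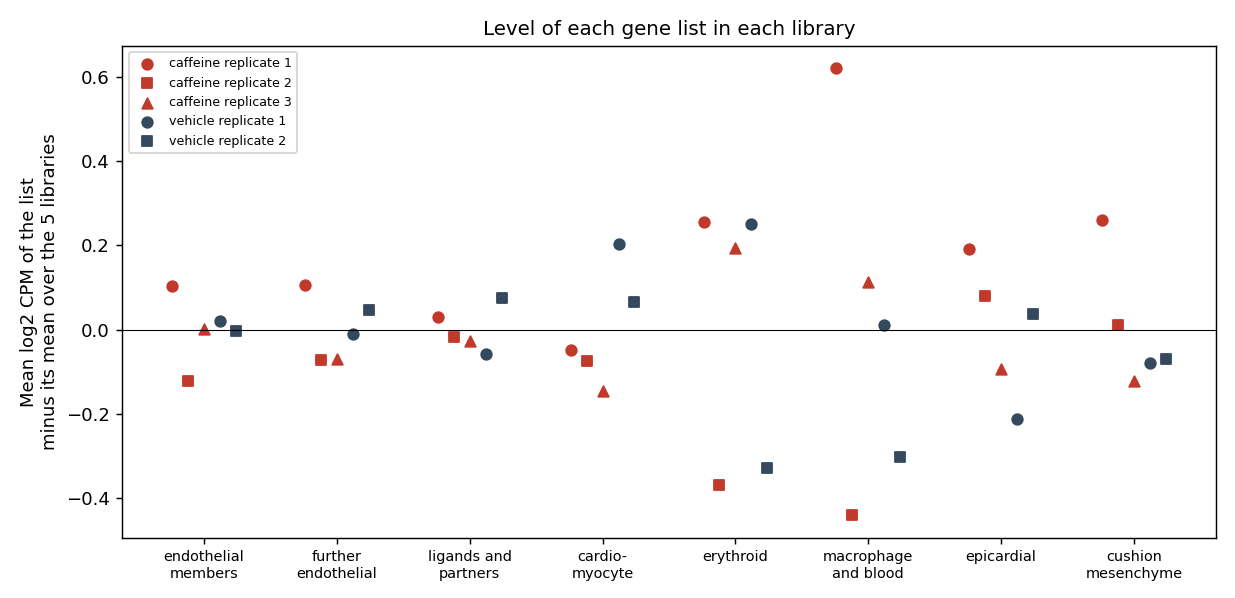
Mean log2 CPM of each gene list in each library, minus the list's mean over the 5 libraries; red points are caffeine and dark points vehicle libraries. For the 34 endothelial members both vehicle libraries lie between caffeine replicates 1 and 2, and erythroid and blood lists spread more widely between libraries than either endothelial list.

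Further endothelial genes outside the 34, among them VEGF and Notch receptors, endothelial transcription factors and endocardial markers, gave no call either. Of the 61 such genes with counts, 60 were tested, 0 passed, and their median was -0.05 (26 positive, 34 negative), or -0.11 without caffeine replicate 1 and 0.00179 without caffeine replicate 2. With edgeR 1 had an unadjusted p under 0.05, the junction gene Cgnl1, at 349, 356 and 360 CPM in caffeine and 426 and 475 CPM in vehicle (-0.34, SE 0.12, adjusted p = 0.851). All caffeine libraries were below both vehicle libraries for Cgnl1. The next by p were Ushbp1 (0.63, SE 0.31) and the netrin receptor Unc5b (0.20, SE 0.12).

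Ligands and partners of the members gave 0 of 26 past the threshold and 0 with an unadjusted p under 0.05, with a median of -0.04. The smallest p values belonged to the basement membrane proteoglycan Hspg2 (0.22, SE 0.15), the Tek ligand Angpt2 (-0.39, SE 0.28) and the small GTPase Rap1a (-0.22, SE 0.17). Angpt2 was low, at 1.70, 1.98 and 2.13 CPM in caffeine and 2.55 and 2.50 CPM in vehicle, where the groups did not overlap.

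Of the other cell types in a ventricle, cardiomyocyte markers had a median of -0.23 (2 of 20 positive), epicardial markers 0.17 (11 of 14 positive) and cushion mesenchyme markers 0.19 (11 of 15 positive), with 0 genes past the threshold in each. These medians moved with single libraries. The cardiomyocyte median was -0.11 without vehicle replicate 1 and -0.36 without vehicle replicate 2, the epicardial median 0.04 without vehicle replicate 1 and 0.30 without caffeine replicate 3, and the cushion median 0.06 without caffeine replicate 1 and 0.11 without caffeine replicate 3. The erythroid median of 0.16 became -0.15 without vehicle replicate 2, 0.02 without caffeine replicate 3, 0.30 without caffeine replicate 2 and 0.50 without vehicle replicate 1. The macrophage and blood cell median was 0.64 over 15 tested genes. It became -0.04 without caffeine replicate 1 (11 tested), 0.08 without caffeine replicate 3 (13 tested) and 0.30 without vehicle replicate 2 (18 tested). The low-count filter passed different genes of this list in these fits, so its shifts are not of the left-out library alone. Cardiomyocyte markers summed to 45541, 45298 and 43994 CPM in caffeine and 54327 and 49471 CPM in vehicle. All caffeine sums lay below both vehicle sums. CPM are shares of a library, and the part of this abundant list in the endothelial values was not tested. Hepatic and yolk sac endoderm markers followed vehicle replicate 2, at 77.4, 50.9 and 22.6 CPM in caffeine and 28.5 and 194 CPM in vehicle.

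Transcript counts gave a second view of the members. The 34 genes had 53 RefSeq transcripts, and 9 genes had several. All 53 were tested and 0 passed, and of all 18418 transcripts tested 0% passed. With edgeR 7 had an unadjusted p under 0.05 (13.2%, against 7.36% of all transcripts), and they lay in only 3 genes, Nfatc1, Egfl7 and Vwf. Transcripts of 1 gene share reads, so these 7 are not independent.

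Only Nfatc1 and Egfl7 had transcripts that begin at different places. After the transcript values were seen, the transcripts of all genes were therefore summed by 5′ start, and the share of each start within its gene was tested with edgeR's diffSpliceDGE over the 1296 genes with several tested starts. Both members passed (adjusted p = 0.0135 each). Of all 1296 genes 131 passed (10.1%), and 23.5% had an unadjusted p under 0.05. The shares rest on how the authors' counting divided reads between transcripts, an error that is not part of the test.

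For Nfatc1, on chromosome 18 (mm10, minus strand), 3 transcripts begin at 80713071, the outer start, and 3 at 80708173, the inner start nearer the shared exons. Work on mouse lymphocytes knows these as an inducible outer promoter and an inner one. Transcripts from the inner start had 9.09, 9.98 and 9.71 CPM in caffeine and 29.3 and 17.9 CPM in vehicle. They made up 12.9%, 14.4% and 10.1% of the gene's counts in caffeine, against 38.8% and 24% in vehicle.

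The inner share fell to 12.5% ± 2.18 in caffeine (SD, n = 3), against 31.4% ± 10.5 in vehicle (SD, n = 2). The caffeine libraries lay close together and below both vehicle libraries, which differed widely from each other. As a level, the edgeR estimate of the inner start was -1.30 (SE 0.22, adjusted p = 0.0895) and that of the outer start 0.42 (SE 0.19, adjusted p = 0.739), so neither passed alone in this fit. With no low-count filter the inner start did pass (adjusted p = 0.0326). Over all genes 0.0194% of starts passed, and 6.98% had an unadjusted p under 0.05. The usage call was lost without vehicle replicate 1 (adjusted p = 0.195, inner start -0.90) and held without any 1 of the others (0.0300 to 0.0428).

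Egfl7 spans positions 26581056 to 26592682 of chromosome 2 (plus strand in mm10). Its transcripts begin at 3 places. The RefSeq windows that hold those starts (each from 250 bases before to 50 after RefSeq's own start, which can differ from the deposited one, build GRCm38.p6, plus strand) are printed because the transcripts that begin in them differed in opposite directions. Capitals mark AGGAAG or its reverse complement CTTCCT, a core that ETS factors can bind.
First start, chr2:26580833-26581132: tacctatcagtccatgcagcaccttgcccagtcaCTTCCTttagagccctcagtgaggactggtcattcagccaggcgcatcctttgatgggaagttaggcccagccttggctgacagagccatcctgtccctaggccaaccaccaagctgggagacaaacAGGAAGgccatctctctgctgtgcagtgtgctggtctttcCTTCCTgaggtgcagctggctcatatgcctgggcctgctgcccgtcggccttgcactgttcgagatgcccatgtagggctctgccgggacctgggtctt
Middle start, chr2:26583615-26583914: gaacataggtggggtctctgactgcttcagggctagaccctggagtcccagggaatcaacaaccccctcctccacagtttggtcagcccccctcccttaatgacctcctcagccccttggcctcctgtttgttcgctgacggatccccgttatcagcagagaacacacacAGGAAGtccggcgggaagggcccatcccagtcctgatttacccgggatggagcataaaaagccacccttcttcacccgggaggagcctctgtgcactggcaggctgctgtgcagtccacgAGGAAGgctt
Last start, chr2:26586386-26586685: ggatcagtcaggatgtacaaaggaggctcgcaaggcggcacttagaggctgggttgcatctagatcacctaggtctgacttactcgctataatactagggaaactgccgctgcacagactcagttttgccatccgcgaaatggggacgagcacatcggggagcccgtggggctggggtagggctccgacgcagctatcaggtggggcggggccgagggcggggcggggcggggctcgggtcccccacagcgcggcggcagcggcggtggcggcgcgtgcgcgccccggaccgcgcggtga

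The first window holds the motif 3 times, the middle window 2 times and the last window 0 times. The windows also differ in composition, with 5, 8 and 31 CpG dinucleotides and 58.3%, 59.0% and 67.3% G and C. RefSeq windows were found for 15 of the 34 members, 21 windows in all, of which 11 (52.4%) hold the motif on either strand, beside 35.4% of all 32851 windows. The match is a description of letters and no measure of binding.

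Transcripts from the middle start of Egfl7 had 27.1, 31.4 and 33.6 CPM in caffeine and 17.3 and 11 CPM in vehicle (edgeR estimate 1.11, SE 0.21, adjusted p = 0.145). Those from the last start had 14.2, 12.4 and 9.40 CPM in caffeine and 18.1 and 16.7 CPM in vehicle (-0.53, SE 0.20, adjusted p = 0.651). The groups did not overlap at either start, in level or in share. Over all genes, 35.3% of start shares had groups with no overlap. The first start was minor, with 0.913, 0.814 and 0.726 CPM in caffeine and 0.287 and 0.318 CPM in vehicle.

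As shares, the middle start held 70.5% ± 6.31 of the gene's counts in caffeine (SD, n = 3) and 43.9% ± 6.40 in vehicle (SD, n = 2). The last start held 27.7% ± 6.07 in caffeine and 55.1% ± 6.14 in vehicle. Leaving out a library moved the adjusted p of the usage test between 0.0339 and 0.0761, and the call was lost without vehicle replicate 2 (0.0761) or without caffeine replicate 2 (0.0660). The positive value of the gene's total thus sat in the middle start, while the last start had a negative one.

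**Figure D4:**
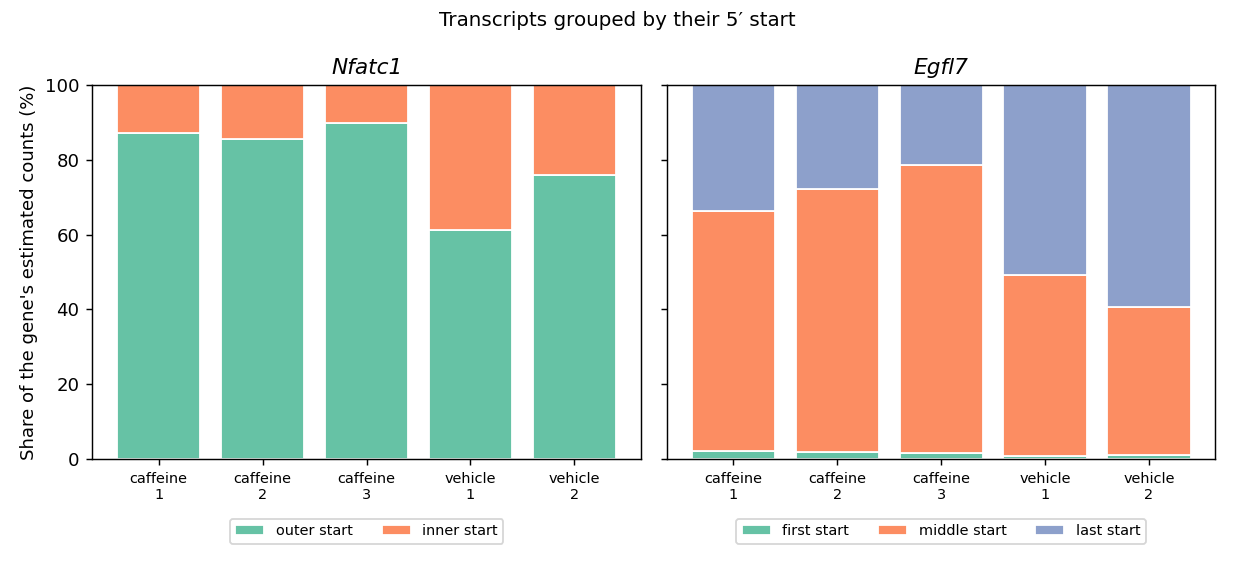
Share (%) of the estimated counts of Nfatc1 and Egfl7 held by transcripts from each 5′ start, in each library. The inner start of Nfatc1 holds 10.1% to 14.4% in caffeine and 24% and 38.8% in vehicle, and the last start of Egfl7 holds 21.5% to 33.7% in caffeine and 50.8% and 59.4% in vehicle.

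Among the other 7 members with several RefSeq transcripts (Acvrl1, Cd34, Emcn, Eng, Ephb4, Ets1 and Pecam1), all transcripts share a start in the table and differ further along. The log2 fold changes of the 3 Eng transcripts ran from 0.04 to 0.20, and those of both Ephb4 transcripts were -0.03 and -0.00395. Pecam1 had -0.25 (SE 0.15) for NM_008816 and -0.01 (SE 0.19) for NM_001032378. For Ets1 the minor transcript NM_001038642 had 24.9, 17.5 and 7.31 CPM in caffeine and 29.9 and 33.1 CPM in vehicle (-0.92, SE 0.42, adjusted p = 0.701). All caffeine libraries lay below both vehicle libraries for it, while the major transcript NM_011808 had -0.01 (SE 0.14).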

How the data were processed

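The authors deposited estimated counts (expected counts, not all whole numbers) per gene and per transcript on RefSeq and Ensembl annotations, per the file headers. TopHat and Partek and the builds mm10 and GRCm38 appear, without versions or roles, in the submitters' processing notes. Per the labels, a TruSeq kit turned total RNA into libraries, which a HiSeq 2000 read. How reads shared by several sequences were divided is not given in the sources used here.

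Counts were rounded, filtered with filterByExpr and scaled by TMM. All 5 libraries were fitted with edgeR 4.0.16 (R 4.3.3; glmQLFit with robust estimation, glmQLFTest, two-sided). P-values were adjusted by Benjamini and Hochberg's method across every feature tested, at a threshold of 0.05. SE is the absolute log2 fold change divided by √F. CPM use TMM-scaled library sizes. Log2 CPM carry a prior count of 2. RPKM divide CPM by the exon union of the GENCODE vM21 transcripts matched to the RefSeq accessions. Ends of genes are the deposited stop minus 1. The steps were tested on simulated data.

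Members and lists were chosen with earlier results of these data known. Values in every library are given for members with an unadjusted p under 0.1 or without overlap, the 5 highest and 3 lowest by RPKM, and Pecam1, Cdh5, Tek, Erg and Nfatc1. Clec14a, the transcripts named and the 5′ start test were chosen after their values were seen. Alternatives were RLE or upper-quartile scaling, no filter, DESeq2 1.42.0, limma-voom (limma 3.58.1), the Ensembl gene table, the replicate number as a block and leaving out each library. The Ensembl transcript table was not used.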

Additional observations from a re-analysis of the deposited data

How the results depend on the processing

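Under the 12 alternatives no member passed an adjusted p of 0.05. The lowest adjusted p of any member was 0.446, for Egfl7, and 16 of 34 members kept the sign of their fold change in every alternative, including Egfl7, Vwf, Sox18, Gpr116 and Fli1. The median of the members ran from -0.10 (without caffeine replicate 1) to 0.04. No member transcript passed under any alternative run on transcripts.

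Several counts moved by more than 1.5 times. Over all genes, 1 passed in the fit reported, 6 with no low-count filter, 18 with DESeq2, 2 with the Ensembl table, 52 with the replicate block and 0 to 18 when 1 library was left out (0 without vehicle replicate 1, 18 without caffeine replicate 1). Members with an unadjusted p under 0.05 numbered 2 in the fit reported (5.2% of all genes tested had one). With the replicate block there was 1 (5.84% of all genes), as Vwf dropped out (unadjusted p = 0.0773 from edgeR). There were 3 without caffeine replicate 1 (6.48% of all genes), 1 without caffeine replicate 2 (4.04%) and 1 without caffeine replicate 3 (3.76%). Of the 2 members whose start-site usage passed, 0 passed with the replicate block (adjusted p = 0.0867 for Nfatc1 and 0.113 for Egfl7) and 1 to 2 when 1 library was left out. Over all genes, start-site usage passed for 131 in the fit reported, 31 with the block and 33 to 78 when 1 library was left out. Start levels passed for 3 in the fit reported, 10 with RLE scaling, 30 with no filter, 132 with the block and 0 to 27 when 1 library was left out. The cause was not tested.

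The replicate numbers were not taken as pairs. Deviations of same-numbered pools from their group means had correlations across genes of -0.0225 and 0.131. With 2 vehicle libraries these deviations mirror each other, so the correlations cannot decide whether the pools were paired. With the block Sox17 turned negative (-0.19). The inner start of Nfatc1 (adjusted p = 0.00784) and the middle start of Egfl7 (0.0222) then passed as levels in edgeR. Replicate 3 has only a caffeine library, so in the blocked fit that library added nothing to the contrast. Sox17 was also negative without caffeine replicate 3 (-0.18). In that fit, with no block, neither start passed (edgeR adjusted p = 0.142 for Nfatc1 and 0.244 for Egfl7). Where 1 vehicle library remained it was assumed to vary like the caffeine libraries. Depth limits Sox17, Robo4 and Cldn5, with 22 to 106 counts per library.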
